A study of Mus musculus with 6 samples.

Results

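The 10 genes described here encode core parts of the Notch pathway: the ligands Jag1, Jag2 and Dll1, the receptors Notch1, Notch2 and Notch3, the receptor-modifying enzyme Lfng, the nuclear factor Rbpj, and the target genes Hes1 and Hey1. They were chosen by name from the symbols of the deposited table, and all 10 were found among its 49452 genes. RNA had been measured in the ectoderm of mouse forelimb buds at E10.5, in 3 Sp8 null embryos and 3 wild-type embryos, with the ectoderm of both forelimbs of 1 embryo in each library. Sp8 encodes a transcription factor with zinc fingers that is made in this ectoderm, and the null embryos were homozygous for an Sp8 allele labelled Sp8-Cre-ERT2 and came from crosses of heterozygous mice. Wild types were bred from inbred C57BL/6 parents, and the labels give C57BL6J as the background of both groups, so the cross and the genotype cannot be told apart. No treatment is labelled, and ectoderm was lifted off after 20 min in 0.25% trypsin.

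Notch signalling passes between cells that touch. A ligand of the Jagged or Delta family on one cell binds a Notch receptor on its neighbour, proteases release the intracellular part of the receptor, and this part joins Rbpj on DNA to switch on targets such as the Hes and Hey repressors. Fringe enzymes such as Lfng add sugars to the receptor and thereby change which ligands it answers to. In the limb ectoderm, Jag2 is known as a gene of the apical ridge, the thickened rim that drives outgrowth, and loss of Jag2 enlarges the ridge and fuses digits.

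Levels are given as FPKM, read fragments counted relative to transcript length and library size, a unit in which genes can be set side by side. A gene was tested with limma, on log2(FPKM + 1), if 3 or more libraries reached 1 FPKM, which left 12133 genes and all 10 members. A gene is called different at a Benjamini-Hochberg adjusted p under 0.05 over all tested genes. Fold changes are given on that log2 scale, as Sp8 null minus wild type, and understate the change of low genes. Depth was known only in relative terms, from 0.843 to 1.04 times that of wild-type embryo 1. Sp8 itself was at 0.460 to 1.14 FPKM in the null libraries and at 8.35 to 13.5 FPKM in the wild-type libraries, so each library followed its label. Ectoderm markers were high in each of the 6 libraries, their 10 genes summing to 460 to 547 FPKM in Sp8 null and 523 to 557 FPKM in wild type. Red cell RNA was highest in wild-type embryo 1, where 6 erythroid genes summed to 422 FPKM, against 11.6 to 161 FPKM in the others. Limb mesenchyme RNA was highest in Sp8 null embryo 2, where 12 marker genes summed to 145 FPKM, against 41.2 to 70.5 FPKM in the others.

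None of the 10 Notch genes was called different between Sp8 null and wild-type ectoderm, while 6.83% of all tested genes were called (limma, Benjamini-Hochberg adjusted p under 0.05). The count was also 0 in limma without the mean-variance trend. It was 2 when only protein-coding genes were tested and 1 without Sp8 null embryo 3. Jag1 and Jag2 had the smallest p-values. Their mean levels were 32.8% and 29.1% lower in Sp8 null, their groups did not overlap, and both missed the threshold narrowly. With overlapping groups, the mean of Lfng was 30.9% higher in Sp8 null, those of Notch1, Notch2 and Notch3 were 14.7% to 17.5% higher and that of Hey1 was 15.2% lower. Dll1 (7.62% higher), Rbpj (2.03% higher) and Hes1 (1.76% lower) had the smallest differences in mean. At an unadjusted p under 0.05 there were 2 of 10 members, Jag1 and Jag2, against 24.0% of all tested genes. Non-overlapping groups were likewise found for 2 of 10, both lower in Sp8 null, against 29.8% of all tested genes, or 21.1% lower and 8.63% higher. The median log2 fold change of the members was 0.04, and that of all tested genes was -0.06. These shares are near the background.

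**Figure D1:**
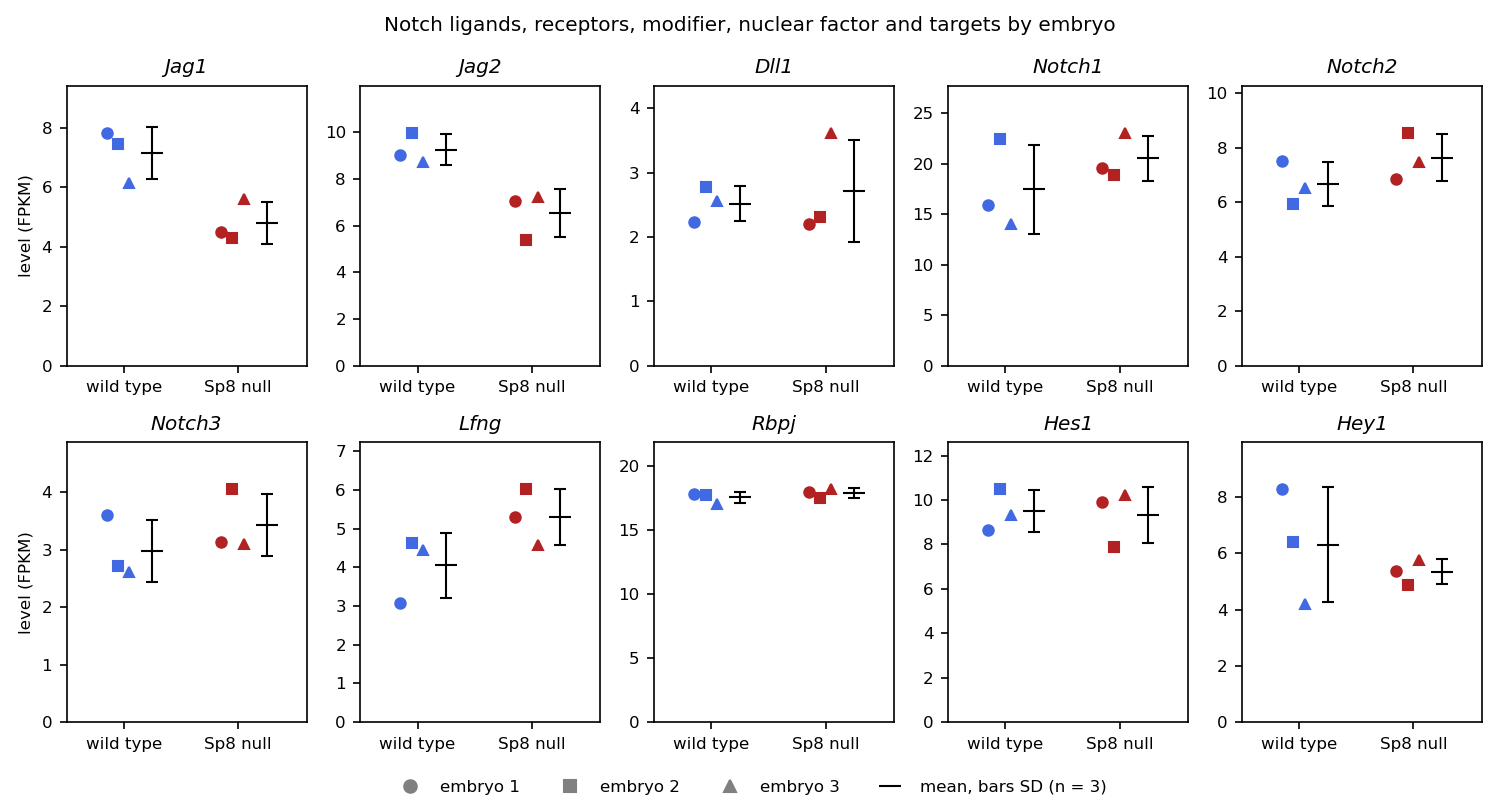
Level in FPKM (y axis, from 0) of the 10 Notch genes in wild-type and Sp8 null libraries, 1 point per embryo with the shape giving its number, and the mean with SD (n = 3) beside the points. The groups are separate for Jag1 and Jag2 and overlap for the other 8 genes.

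The ligands are described first, since they hold the only members whose groups were apart. Jag1 (ENSMUSG00000027276; GRCm38, chromosome 2, 137081456 to 137116644, minus strand, protein-coding) was at 7.84, 7.47 and 6.15 FPKM in wild-type embryos 1, 2 and 3. It was at 4.50, 4.31 and 5.62 FPKM in Sp8 null embryos 1, 2 and 3. The highest null value lay just under the lowest wild-type value, so the groups were apart by a small gap. The means were 7.15 ± 0.885 FPKM in wild type and 4.81 ± 0.708 FPKM in Sp8 null (SD, n = 3 each), a mean 32.8% lower. The log2 fold change was -0.49 (SE 0.12; 95% interval -0.78 to -0.20; limma, Benjamini-Hochberg adjusted p = 0.0601). Without Sp8 null embryo 3 it was -0.59 and passed the threshold (limma adjusted p = 0.0493). With any other single library left out it did not pass, at -0.58 to -0.43 (limma adjusted p = 0.0594 to 0.195).

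Jag2 (ENSMUSG00000002799; GRCm38, chromosome 12, 112907819 to 112929776, minus strand, protein-coding), the ligand known from the ridge, was at 9.03, 9.99 and 8.71 FPKM in wild-type embryos 1, 2 and 3. In Sp8 null embryos 1, 2 and 3 it was at 7.04, 5.38 and 7.24 FPKM. Every null library lay below every wild-type library, and Sp8 null embryo 2, the library richest in mesenchyme markers, was the lowest. The means were 9.24 ± 0.664 FPKM in wild type and 6.55 ± 1.03 FPKM in Sp8 null (SD, n = 3 each), a mean 29.1% lower. The log2 fold change was -0.45 (SE 0.12; 95% interval -0.72 to -0.17; limma, Benjamini-Hochberg adjusted p = 0.0683). Without Sp8 null embryo 2 it was -0.33 (limma adjusted p = 0.139). Jag2 passed with no single library left out, at -0.51 to -0.33 (limma adjusted p = 0.0768 to 0.225). When only the 10606 protein-coding genes were tested, which lowers the number of tests, both Jagged genes passed, at limma adjusted p = 0.035 for Jag1 and 0.0409 for Jag2, where 10.2% of genes were called.

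The differences in Jag1 and Jag2 were small beside those of the ridge markers. Of 12 ridge markers 9 could be tested, all 9 with a negative fold change, and 8 of them were called lower, and the 12 together summed to 277 to 300 FPKM in wild type and to 54.9 to 68.0 FPKM in Sp8 null. Fgf8, a growth factor made by the ridge, was at 30.2 to 36.0 FPKM in wild type and 0.320 to 1.15 FPKM in Sp8 null. Dlx5, a homeobox gene and the called ridge marker with the smallest change, was at 14.99 to 19.7 FPKM in wild type and 5.98 to 10.7 FPKM in Sp8 null, a log2 fold change of -1.05 (limma adjusted p = 0.0201). In whole ectoderm, fewer cells of a type and less RNA per cell cannot be told apart, and the part of ridge cells in the Jagged values was not tested.

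The 250 bases before the RefSeq start of each Jagged gene are shown because these ligands had the lowest p-values, and that of Lfng because it had the largest positive fold change of the members and holds the core letters read by Rbpj. They are from the GRCm38.p6 table of RefSeq promoters, 5′ to 3′ on the gene's strand. Capitals mark TGGGAA, the core of the Rbpj motif, and GGGCGG, the GC box that Sp family factors can bind, each on either strand.
Jag1, chr2:137116521-137116770, minus strand: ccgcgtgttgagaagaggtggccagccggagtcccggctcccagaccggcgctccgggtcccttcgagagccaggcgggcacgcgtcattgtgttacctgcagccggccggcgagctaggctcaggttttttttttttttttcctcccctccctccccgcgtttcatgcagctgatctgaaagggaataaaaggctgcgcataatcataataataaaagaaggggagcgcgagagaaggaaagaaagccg
Jag2, chr12:112929496-112929745, minus strand: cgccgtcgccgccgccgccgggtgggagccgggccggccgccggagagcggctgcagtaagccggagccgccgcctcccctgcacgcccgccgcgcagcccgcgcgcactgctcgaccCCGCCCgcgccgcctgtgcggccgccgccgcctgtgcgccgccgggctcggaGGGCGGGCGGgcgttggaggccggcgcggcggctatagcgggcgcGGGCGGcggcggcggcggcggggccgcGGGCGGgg
Lfng, chr5:140607091-140607340, plus strand: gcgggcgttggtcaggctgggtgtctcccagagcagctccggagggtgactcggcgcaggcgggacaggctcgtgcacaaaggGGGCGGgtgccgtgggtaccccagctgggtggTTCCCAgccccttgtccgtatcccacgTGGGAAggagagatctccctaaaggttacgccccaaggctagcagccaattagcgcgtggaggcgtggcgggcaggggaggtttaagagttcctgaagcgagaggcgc
By the gene coordinates given here, the Jag2 window lies wholly inside the gene, and the Jag1 and Lfng windows lie partly inside theirs. The Jag1 window held neither set of letters. That of Jag2 held 5 GC box matches, of which the pair 80 and 76 bases before the start overlap, and its bases were 87.2% G or C, against a median of 52.4% over all 32851 windows of the table. That of Lfng held 2 Rbpj core matches, 135 and 108 bases before the start on opposite strands, and 1 GC box. Over all windows of this length 21.6% held TGGGAA and 32.7% held GGGCGG on either strand. Of the 8 members with a promoter in the table, 2 held TGGGAA (Lfng and Rbpj) and 5 held GGGCGG (Jag2, Lfng, Notch1, Notch2 and Notch3). The 10 windows of these members were 56% to 87.2% G or C, all above that median. The shares over all windows were not matched for base composition, and they count windows where the members are counted as genes. Hes1 and Hey1 were not matched. A match is a run of letters, and no binding was measured.

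Dll1 (ENSMUSG00000014773; GRCm38, chromosome 17, 15367354 to 15376872, minus strand), the one Delta ligand among the members, was the lowest of the 10. It was at 2.23, 2.77 and 2.55 FPKM in wild-type embryos 1 to 3 and at 2.20, 2.31 and 3.62 FPKM in Sp8 null embryos 1 to 3. The groups overlapped, with Sp8 null embryo 3 above all others. The log2 fold change was 0.06 (SE 0.16; 95% interval -0.31 to 0.43; limma adjusted p = 0.857), and it was -0.11 without that embryo. Exons of a noncoding gene on the other strand, A930024N18Rik, cover 20.5% of its exon bases. The partner was at 0.237 to 0.437 FPKM, and whether the counting used strand is not given in the sources used here.

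Of the other Delta ligands, Dll3 was at most 0.0565 FPKM in any library. Dll4, an endothelial ligand, was listed at 0 in 5 of 6 libraries and at 0.0132 FPKM in wild-type embryo 1. Over 11 endothelial markers the sum was 2.23 to 3.23 FPKM in wild type and 2.57 to 4.61 FPKM in Sp8 null, and Egfl7 was the one marker at 1 FPKM or more. The other 10 were at most 0.492 FPKM in any library and differed in pattern. Cdh5, Emcn, Tie1 and Cldn5 were listed at 0 in each wild-type library and were highest in Sp8 null embryo 1, Pecam1 had signal in all 6 libraries, and Flt1 was at 0.156 to 0.212 FPKM in wild type and 0.0143 to 0.145 FPKM in Sp8 null.

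Among the receptors, Notch1 (ENSMUSG00000026923; GRCm38, chromosome 2, 26457903 to 26516663, minus strand) had the highest level in both groups. It was at 15.9, 22.4 and 14.0 FPKM in wild-type embryos 1, 2 and 3 and at 19.6, 18.9 and 23.1 FPKM in Sp8 null embryos 1, 2 and 3. Wild-type embryo 2 stood apart from its group and lay within the null range. The means were 17.5 ± 4.39 and 20.5 ± 2.24 FPKM (SD, n = 3 each), and the log2 fold change was 0.24 (SE 0.16; 95% interval -0.14 to 0.63; limma adjusted p = 0.425). It was 0.43 without wild-type embryo 2 and 0.11 without wild-type embryo 3, with limma adjusted p-values of 0.138 and 0.732. Noncoding genes on the other strand share 7.50% and 2.91% of its exon bases and were at most 0.656 FPKM.

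Notch2 (ENSMUSG00000027878; GRCm38, chromosome 3, 98013527 to 98150361, plus strand) was at 7.52, 5.92 and 6.53 FPKM in wild-type embryos 1 to 3 and at 6.86, 8.55 and 7.48 FPKM in Sp8 null embryos 1 to 3. Its log2 fold change was 0.17 (SE 0.11; 95% interval -0.09 to 0.44; limma adjusted p = 0.406). Notch3 (ENSMUSG00000038146; GRCm38, chromosome 17, 32120820 to 32166852, minus strand) was at 3.61, 2.72 and 2.62 FPKM in wild-type embryos 1 to 3 and at 3.14, 4.06 and 3.10 FPKM in Sp8 null embryos 1 to 3. The gene had a log2 fold change of 0.16 (SE 0.14; 95% interval -0.17 to 0.48; limma adjusted p = 0.543). For both genes Sp8 null embryo 2 was the highest library and wild-type embryo 1 the next, and the groups overlapped.

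These are also the libraries with the highest summed limb mesenchyme markers, 145 FPKM in Sp8 null embryo 2 and 70.5 FPKM in wild-type embryo 1. Of the 12 markers 10 reached 1 FPKM in some library, and 8 of the 12 were highest in Sp8 null embryo 2. Prrx1, a homeobox gene of limb mesenchyme with the highest level of them there, was at 53.3 FPKM in that embryo and at 3.92 to 16.5 FPKM elsewhere. Other markers had another order. Meox1 was lowest in Sp8 null embryo 2, at 1.83 FPKM against 2.79 to 8.53 FPKM, and Pdgfra was at 19.8 to 23.8 FPKM in wild type against 19.5 FPKM in that embryo and 6.01 and 6.37 FPKM in the other null libraries. Lmx1b, the one marker called, was higher in all null libraries, at 11.5 to 17.7 FPKM against 5.16 to 7.34 FPKM. Without Sp8 null embryo 2 the log2 fold change was 0.10 for Notch2 and 0.06 for Notch3. Without wild-type embryo 1 it was 0.25 for Notch2 and 0.27 for Notch3. Notch1 did not share the order of Notch2 and Notch3, being at 18.9 FPKM in Sp8 null embryo 2. The part of mesenchymal RNA in these receptor values was not tested. Notch4, the remaining receptor and known from endothelium, was at 0.0778 to 0.246 FPKM and was not tested.

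**Figure D2:**
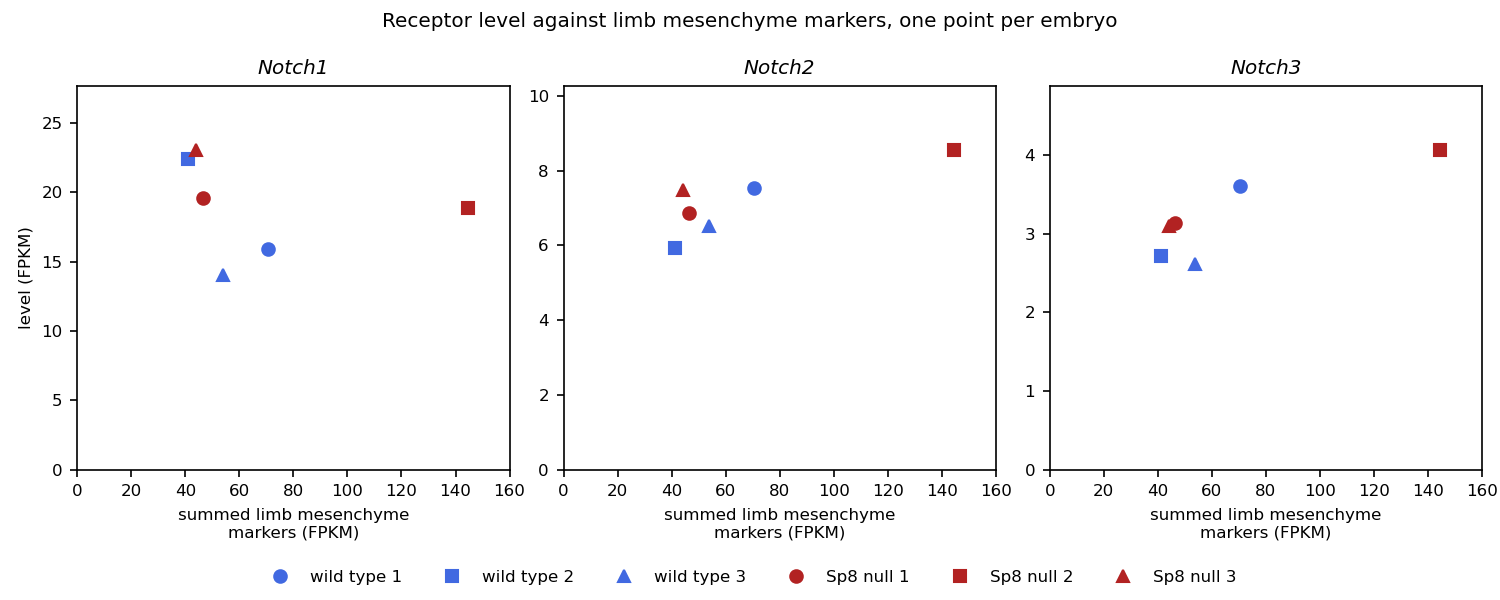
Level in FPKM of Notch1, Notch2 and Notch3 (y axes, from 0) against the summed FPKM of 12 limb mesenchyme markers (x axis), 1 point per embryo, blue for wild type and red for Sp8 null. For Notch2 and Notch3 the top points are Sp8 null embryo 2 at 145 FPKM of markers and wild-type embryo 1 at 70.5 FPKM, and for Notch1 they are not.

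Side by side, the summed level of the 3 ligands was lower and that of the 3 receptors was higher on average in Sp8 null. Jag1, Jag2 and Dll1 summed to 19.1, 20.2 and 17.4 FPKM in wild-type embryos 1 to 3 and to 13.7, 12.0 and 16.5 FPKM in Sp8 null embryos 1 to 3. Notch1, Notch2 and Notch3 summed to 27.1, 31.0 and 23.2 FPKM in wild type and to 29.6, 31.5 and 33.6 FPKM in Sp8 null. The ligand sum divided by the receptor sum was 0.706, 0.652 and 0.752 in wild type and 0.465, 0.381 and 0.490 in Sp8 null. The wild-type range of this quotient lay above the null range, and it is given without a test since the genes were chosen with results known. Within the receptors, Notch1 made up 63.9% ± 7.25 of the sum in wild type and 64.9% ± 4.45 in Sp8 null (SD, n = 3 each). Within the ligands, Dll1 made up 13.3% ± 1.51 in wild type and 19.1% ± 2.98 in Sp8 null. The level of Jag1 divided by that of Jag2 was 0.774 ± 0.0839 in wild type and 0.739 ± 0.0874 in Sp8 null.

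**Figure D3:**
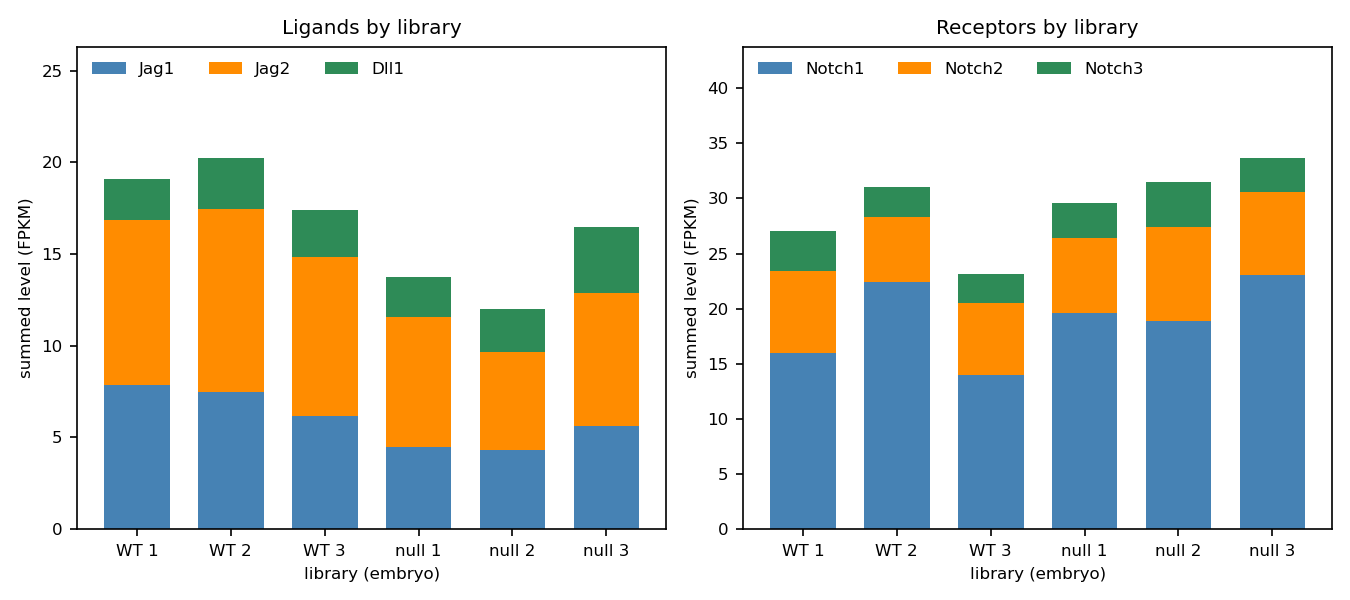
Summed level in FPKM (y axes, from 0) of the ligands Jag1, Jag2 and Dll1 (left) and the receptors Notch1, Notch2 and Notch3 (right) in each library, with colours for the genes. The ligand bars are 17.4 to 20.2 FPKM in wild type and 12.0 to 16.5 FPKM in Sp8 null, and the receptor bars overlap.

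Lfng (ENSMUSG00000029570; GRCm38, chromosome 5, 140607320 to 140615545, plus strand), the Fringe enzyme whose promoter letters are given above, had the largest positive fold change of the members. It was at 3.07, 4.62 and 4.46 FPKM in wild-type embryos 1 to 3 and at 5.30, 6.03 and 4.56 FPKM in Sp8 null embryos 1 to 3. The lowest null value lay just under the highest wild-type value, so the groups overlapped, and wild-type embryo 1 was the lowest library. Between groups the log2 fold change was 0.33 (SE 0.15; 95% interval -0.03 to 0.68; limma adjusted p = 0.241), and 0.18 without wild-type embryo 1. The other Fringe genes stood at different levels. Rfng was at 2.26 to 2.69 FPKM in wild type and 2.70 to 3.19 FPKM in Sp8 null (log2 fold change 0.21, SE 0.10, limma adjusted p = 0.269), with groups that did not overlap, and Mfng was at most 0.205 FPKM.

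Rbpj (ENSMUSG00000039191; GRCm38, chromosome 5, 53466152 to 53657362, plus strand), the DNA-binding partner of the cleaved receptor, varied least. It was at 17.8, 17.7 and 17.0 FPKM in wild-type embryos 1 to 3 and at 18.0, 17.5 and 18.2 FPKM in Sp8 null embryos 1 to 3. On the log2 scale the difference was 0.03 (SE 0.07; limma adjusted p = 0.833), and its 95% interval of -0.13 to 0.18 was the narrowest of the 10 members. On the fold scale of FPKM + 1 this interval runs from 0.917 to 1.13.

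The targets gave no call in either direction. Hes1 (ENSMUSG00000022528; GRCm38, chromosome 16, 30064384 to 30067796, plus strand) was at 8.67, 10.51 and 9.34 FPKM in wild-type embryos 1 to 3 and at 9.89, 7.89 and 10.2 FPKM in Sp8 null embryos 1 to 3. Sp8 null embryo 2 lay below the wild-type range and the other null libraries inside it. Its log2 fold change was -0.03 (SE 0.12; 95% interval -0.30 to 0.25; limma adjusted p = 0.917). It was 0.04 and 0.06 under median-of-ratios and upper-quartile scaling, so its sign depended on the scaling. The median of all tested genes moved likewise, from -0.06 to 0.01 and 0.03. The interval of Hes1 spans 0.812 to 1.19 as a fold of FPKM + 1.

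Hey1 (ENSMUSG00000040289; GRCm38, chromosome 3, 8663359 to 8667256, minus strand) had the widest wild-type spread for its level. It was at 8.30, 6.40 and 4.20 FPKM in wild-type embryos 1, 2 and 3 and at 5.39, 4.87 and 5.76 FPKM in Sp8 null embryos 1, 2 and 3. All null values lay inside the wild-type range. The gene had a log2 fold change of -0.17 (SE 0.20; 95% interval -0.63 to 0.30; limma adjusted p = 0.658), and it was 0.03 without wild-type embryo 1 and -0.39 without wild-type embryo 3. At 3 embryos a group, a change of Hey1 to 0.647 of the wild-type FPKM + 1 is within that interval.

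In wild-type ectoderm the order of mean FPKM was Rbpj (17.53), Notch1 (17.45), Hes1 (9.50), Jag2 (9.24), Jag1 (7.15), Notch2 (6.66), Hey1 (6.30), Lfng (4.05), Notch3 (2.98) and Dll1 (2.52). Neighbours in this order overlapped in range except Notch1 above Hes1 and Jag2 above Jag1. In Sp8 null the order was Notch1 (20.5), Rbpj (17.9), Hes1 (9.34), Notch2 (7.63), Jag2 (6.55), Hey1 (5.34), Lfng (5.30), Jag1 (4.81), Notch3 (3.43) and Dll1 (2.71). There the ranges of neighbours were apart for Notch1 above Rbpj, Rbpj above Hes1 and Jag1 above Notch3. Jag1 went from the fifth to the eighth place.

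Jag1 had the smallest p-value of the members, and the genes most like it over the 6 libraries were found by the root mean square distance of log2(FPKM + 1), each gene centred on its own mean. The nearest were Mrto4, a ribosome assembly factor, Metap2, a methionine aminopeptidase, Hyou1, a chaperone of the endoplasmic reticulum, Cdk1, the mitotic kinase, and Cct3, a chaperonin subunit. Their distances were 0.0403, 0.0486, 0.0497, 0.0497 and 0.0503 on the log2 scale, and their log2 fold changes lay between -0.51 and -0.41. Jag2 was at a distance of 0.119, with 367 of the tested genes nearer to Jag1.

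The wider pathway was read from a list of 47 further genes, of which 30 passed the filter on low values. Of these 16 had a negative fold change, against 7432 of all 12133 tested genes. The number called lower was 2 of 30 against 5.15% of all tested genes, and the number called higher was 0 against 1.68%. Eogt and Heyl were the genes called. At an unadjusted p under 0.05 there were 11 of 30 against 24.0% of all tested genes, and groups did not overlap for 15 of 30 against 29.8%. The median log2 fold change was -0.05 against -0.06 for all tested genes.

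Eogt, the enzyme that puts N-acetylglucosamine on the EGF repeats of Notch receptors and other secreted proteins, had the largest log2 fold change, in size, among the tested pathway genes. It was at 25.6, 22.9 and 26.2 FPKM in wild-type embryos 1 to 3 and at 8.22, 7.55 and 9.93 FPKM in Sp8 null embryos 1 to 3. The groups were far apart, the mean of 24.9 ± 1.74 FPKM falling to 8.57 ± 1.23 FPKM (SD, n = 3 each). Between groups the log2 fold change was -1.44 (SE 0.11; 95% interval -1.70 to -1.19; limma adjusted p = 0.000473), and it stayed called in each of the 17 alternatives, at -1.54 to -1.35. Of the other enzymes that glycosylate Notch, Pofut1, which adds the fucose that Fringe extends, had a log2 fold change of -0.10 (limma adjusted p = 0.575), and Poglut1, which adds glucose, had one of -0.23 (limma adjusted p = 0.18). Both are named after their values were seen.

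Heyl, a target of the Hey family, was at 4.66, 5.13 and 4.76 FPKM in wild-type embryos 1 to 3 and at 2.85, 3.29 and 3.45 FPKM in Sp8 null embryos 1 to 3. The groups did not overlap, and the mean fell from 4.85 ± 0.243 to 3.20 ± 0.310 FPKM (SD, n = 3 each). On the log2 scale the change was -0.48 (SE 0.10) at a limma adjusted p of 0.0308. The call was lost when any 1 library was left out (wild-type embryo 1, 2 or 3 or Sp8 null embryo 1, 2 or 3), with limma adjusted p-values from 0.0503 to 0.126, while the log2 fold change stayed between -0.52 and -0.42. It was also lost with the embryo number as a block (limma adjusted p = 0.104), with no filter on low values (0.083) and in the 4 libraries whose sample name starts with 5 (0.139, log2 fold change -0.44). The other tested targets had log2 fold changes of -0.17 for Hey1, -0.03 for Hes1 and 0.16 for Hes6, and the difference between targets was not tested. Hes5 was at most 0.0871 FPKM. Nrarp, whose product limits the released receptor, was at 0.105 to 0.289 FPKM, and 79.4% of its exon bases are shared with an antisense gene.

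**Figure D4:**
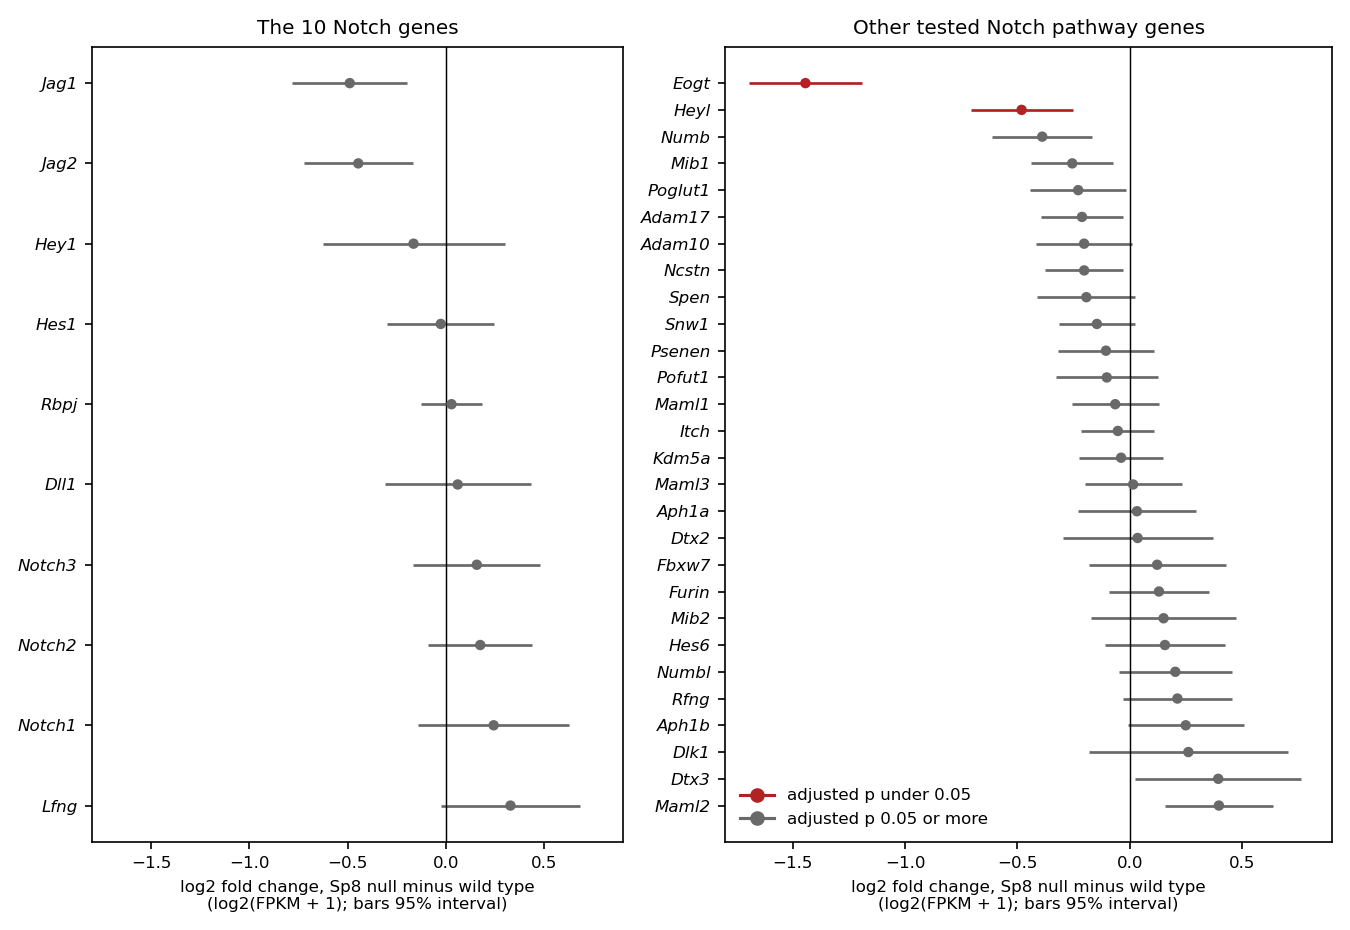
Log2 fold change of Sp8 null minus wild type (x axis, on log2(FPKM + 1)) with its 95% interval from limma, for the 10 Notch genes (left) and 28 of the 30 other tested pathway genes (right). Red marks an adjusted p under 0.05, which Eogt at -1.44 and Heyl at -0.48 reach.

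The genes given next were named after their values were seen. Of these, Numb and Maml2 lay near the threshold, with differences of opposite sign. Numb, which promotes removal of the receptor, was at 11.5 to 12.6 FPKM in wild type and 7.78 to 9.56 FPKM in Sp8 null (log2 fold change -0.39, limma adjusted p = 0.0542). The coactivator Maml2 was at 3.14 to 3.64 and 4.27 to 5.23 FPKM (0.40, limma adjusted p = 0.063). Maml2 passed under both other scalings, where 7.13% and 7.12% of genes were called, and Numb did not. Numb passed when a mean of at least 5 FPKM was required (limma adjusted p = 0.0433), a filter that left out Maml2 and Heyl. Numb and Maml2 passed among protein-coding genes, at limma adjusted p = 0.0355 and 0.0444. Among the proteases that cut the receptor, Ncstn of the gamma-secretase complex had a log2 fold change of -0.20 (limma adjusted p = 0.15), and its groups did not overlap. Mib1, the ubiquitin ligase that ligands need to signal, had a log2 fold change of -0.26 (limma adjusted p = 0.0996).

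**Figure D5:**
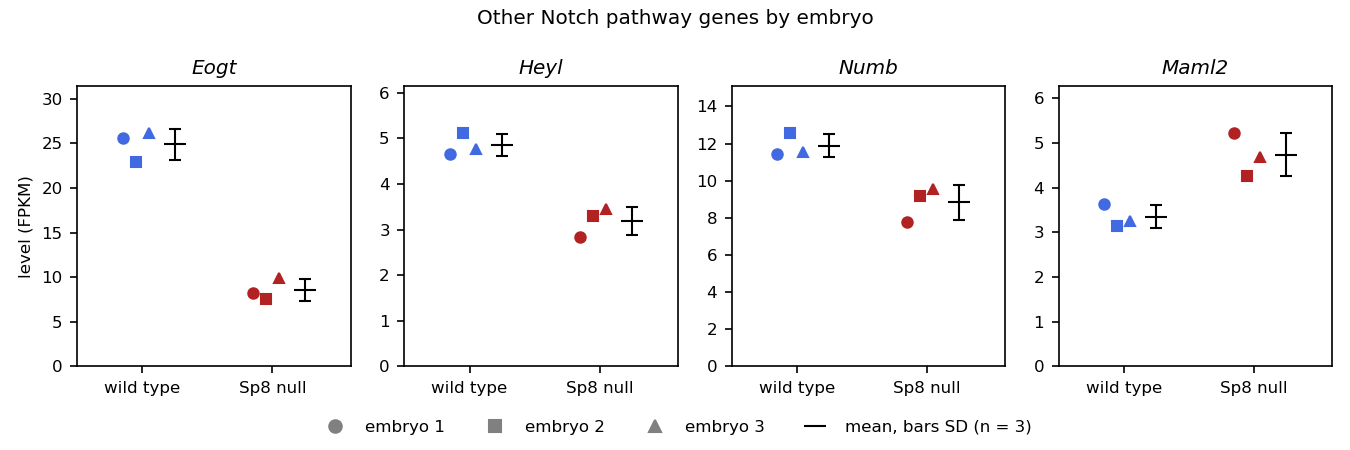
Level in FPKM (y axes, from 0) of Eogt, Heyl, Numb and Maml2 in each library, 1 point per embryo with the mean and SD (n = 3). Eogt and Heyl were called, and Numb and Maml2, chosen after their values were seen, have separate groups and adjusted p-values of 0.0542 and 0.063.

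The authors' deposited table also gives, per gene, group means on the scale of read counts, a fold change and a p-value. Its p-values for the Jagged and receptor genes were smaller than those of limma. Its fold change need not equal the ratio of its means: Sp8 was at -4.16 with means of 1960.23 in wild type and 149.39 in Sp8 null. A p-value under 0.05 was given for 6 of 10 members in the authors' deposited table, against 31.3% of the tested genes. Of these, 2 were lower and 4 higher in Sp8 null, against 20.0% and 11.3% of the tested genes. Jag1 had a fold change of -1.41 with a p-value listed as 0, and Jag2 one of -1.38 with p = 1e-06, in the authors' deposited table. The higher genes in the authors' deposited table were Lfng at 1.21 (p = 0.0272), Notch3 at 1.18 (p = 0.0222), Notch2 at 1.17 (p = 0.00548) and Notch1 at 1.11 (p = 0.0295). Hey1, Hes1, Rbpj and Dll1 had p-values of 0.233 to 0.883 in the authors' deposited table. After Benjamini-Hochberg adjustment over the tested genes, computed here from the authors' deposited table, Jag1, Jag2 and Notch2 were under 0.05, or 3 of 10 members against 21.2% of the tested genes. The test behind the authors' deposited table is not described in it, and the direction of all members but Hes1, at 1.01 there and -0.03 on the log2 scale here, was the same in both.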

How the data were processed

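The deposited table held FPKM for each of 6 libraries, per the file headers, with gene models of Ensembl build 87. Per the submitters' processing notes, the build was GRCm38 and the tools were FastQC, TopHat2, SAMtools, Cufflinks and DESeq2, with no versions or roles given. The authors' deposited table also held a group mean (a normalized signal, near read counts in scale), a fold change (a signed score) and a p-value per gene, used only as the authors' comparison. Genes were matched by Ensembl identifier to GENCODE M21 (GRCm38), which held 49109 of the 49452 identifiers and gave coordinates, gene types and missing symbols. FPKM was fitted as log2(FPKM + 1) with genotype as the only term in limma 3.58.1 (R 4.3.3) with a mean-variance trend, for genes that reached 1 FPKM in 3 or more libraries. P-values are two-sided. The fit was also run on simulated data, and the outcome of that run is not reported here. Whole reads were not recovered, so no count test was run. Relative depth came from the commonest ratio of low FPKM values, and a library's total FPKM is no measure of it. Each library is 1 embryo. No pair of libraries shared more than 1 equal value at 1 FPKM or more.

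The members and lists were chosen with earlier results of these data known. The text names all 10 members, Sp8, the called genes of the wider list, 8 fixed genes of it, and the 5 genes nearest to the member with the smallest p-value. Any other gene is a marker, an overlapping gene, or one the text says was picked with its values known. Some genes of the wider list are counted but not reported here by name. Alternatives were the pseudocount, filter, scaling, single libraries, sample name number, embryo number, protein-coding genes, failed estimates and, added after seeing the data, limma without the trend.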

Additional observations from a re-analysis of the deposited data

How the results depend on the processing

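The number of genes called, 829, was 342 with no filter on low values, 545 with the first digit of the sample name (4 or 5) as a covariate, 251 in the libraries whose name starts with 5 (2 against 2) and 316 to 642 with 1 library left out, fits with fewer samples. The number of Notch members called, 0, was 2 with only protein-coding genes tested, which means fewer tests, and 0 to 1 with 1 library left out. The number of wider pathway genes called, 2, was 4 under median-of-ratios scaling, 4 under upper-quartile scaling and 4 with only protein-coding genes, and it was 1 with no filter, 1 in the libraries whose name starts with 5 and 1 in each fit with 1 library left out. In the replicate block by embryo number, 328 genes and 1 wider pathway gene were called, and no member. Embryos of equal number also shared the first digit of the sample name, 4 for number 1 and 5 for numbers 2 and 3. Their departures from the group means correlated at -0.16, -0.14 and -0.07, and what else they shared was not tested. Of the calls 24.6% were higher in Sp8 null, 37.4% under median-of-ratios scaling and 42.0% under upper-quartile scaling. Hes1 turned to 0.0389 and 0.0606 (log2) under these scalings and lay between -0.0906 and 0.0780 with 1 library left out. Dll1 lay between -0.109 and 0.155, and Hey1 between -0.390 and 0.0287, with 1 library left out, and Hey1 was 0.0221 in the libraries whose name starts with 5. Of 167 values of single members, 156 kept direction and side of the threshold, 3 passed it newly and 8 changed sign. Jag1 ranged from -0.59 to -0.39 and Jag2 from -0.51 to -0.33. The cause was not tested unless stated. Depth is known only relatively, so no counting error can be given.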
